A study of Mus musculus with 10 samples.

Results

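The genes of fibrillar and type VI collagen were followed in mouse heart ventricle after aldosterone. They were taken from a list of 9 genes, Col1a1, Col1a2, Col3a1, Col5a1, Col5a2, Col5a3, Col6a1, Col6a2 and Col6a3, by matching the RefSeq accession that the array gives for each probe. In GRCm38.p6 they lie on chromosomes 1 (Col3a1, Col5a2, Col6a3), 2 (Col5a1), 6 (Col1a2), 9 (Col5a3), 10 (Col6a1, Col6a2) and 11 (Col1a1). A probe was found for 8 of the 9, with 1 probe and 1 spot per gene, out of 39429 probes in all. No probe matched Col6a3, so its level is not analysed here. All 8 probes exceeded background clearly in Cy5 on every array by the scanner software's call, no spot of theirs was saturated or marked as an outlier, and all 8 entered a test of 22014 genes or transcripts.

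Aldosterone hearts came from 5 male mice treated for 7 days and untreated hearts from 5 male mice, also labelled as 7 days, with ventricle RNA from each heart in Cy5. Both groups carry the word Ctrl in their names. Genotype, strain, age and the dose of aldosterone are not given in the sources used here. Each sample was hybridised to a 2-colour Agilent array against 1 common Cy3 reference pooled from liver, brain, heart, kidney and spleen. Scanner files were at hand for aldosterone 1, 2, 3 and 5 and for all 5 untreated hearts, and the authors' deposited value table adds aldosterone 4, for 10 hearts. Every level below is a log2 ratio of a heart over the tissue pool, and every difference is aldosterone minus untreated on the log2 scale. A ratio above 0 means more signal for that RNA from the ventricle than from the pool, and since every heart was in Cy5, a dye effect is part of the ratio. Levels of different genes were measured by different probes and are not set against each other.

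Type I and type III collagen are the main fibrils of the heart's interstitium, built from long chains that wind into triple helices and are crosslinked outside the cell. Type V collagen is a minor fibrillar type that joins type I in mixed fibrils and takes part in starting and sizing them. Type VI collagen has a short helix and large globular ends and forms beaded filaments around cells. Cardiac fibroblasts are the main source of these RNAs, and aldosterone, a steroid hormone of the adrenal cortex and ligand of the mineralocorticoid receptor, is known for its part in cardiac fibrosis when salt is high.

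The share of probes well above background ran from 64.3% to 70.9% over the arrays, with median Cy5 signals of 118.5 to 146.25 units where the local background had a median of 57 to 59. Heart tissue was checked by 8 cardiomyocyte markers, all well above background on 9 of 9 arrays. Of these Myh6, Myl2, Tnnt2 and Tnni3 were saturated on all 9 and Ttn on 5. The number of arrays limits the precision. The arrays lay on 4 slides, each scanned once and each holding both groups. Aldosterone arrays were at position 2 of a slide and untreated arrays at position 1 or 4, so group and position on the slide cannot be told apart. Clustering of the 1000 most variable other genes, after removal of the group means, put aldosterone 1 and 2 with untreated 2 and 5, and aldosterone 3 and 5 with untreated 1, 3 and 4. The first principal component held 41.8% of that variance. The labels name no such sets, and values within them are given beside the results.

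Every one of the 8 collagen genes averaged higher in aldosterone hearts, by 0.28 to 0.59 on the log2 scale, and none passed adjustment over all genes. In the limma fit 0 of 8 collagen genes had an adjusted p under 0.05, where 0% of the 22014 genes tested did. At an unadjusted p under 0.05, 8 of 8 lay higher, against 4.17% of all genes tested, a count that was 4 without aldosterone 3 and 5 without aldosterone 1 or untreated 1, 4 or 5. A difference above 0 was found for 8 of 8, against 52.3% of all genes. The median difference was 0.41 over the 8 genes and 0.005 over all genes. In the 10 hearts of the deposited table, 0 of 8 genes passed, against 0.168% of all genes, and 7 of 8 lay higher at an unadjusted p under 0.05, against 4.88%, or 3 of 8 without aldosterone 1 or 3 or untreated 1 or 5 and 4 of 8 without aldosterone 5 or untreated 4. There 8 of 8 differences were above 0, against 49.9% of all genes. As the genes share a cell source and were chosen with earlier results of these data known, these counts are a description.

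**Figure D1:**
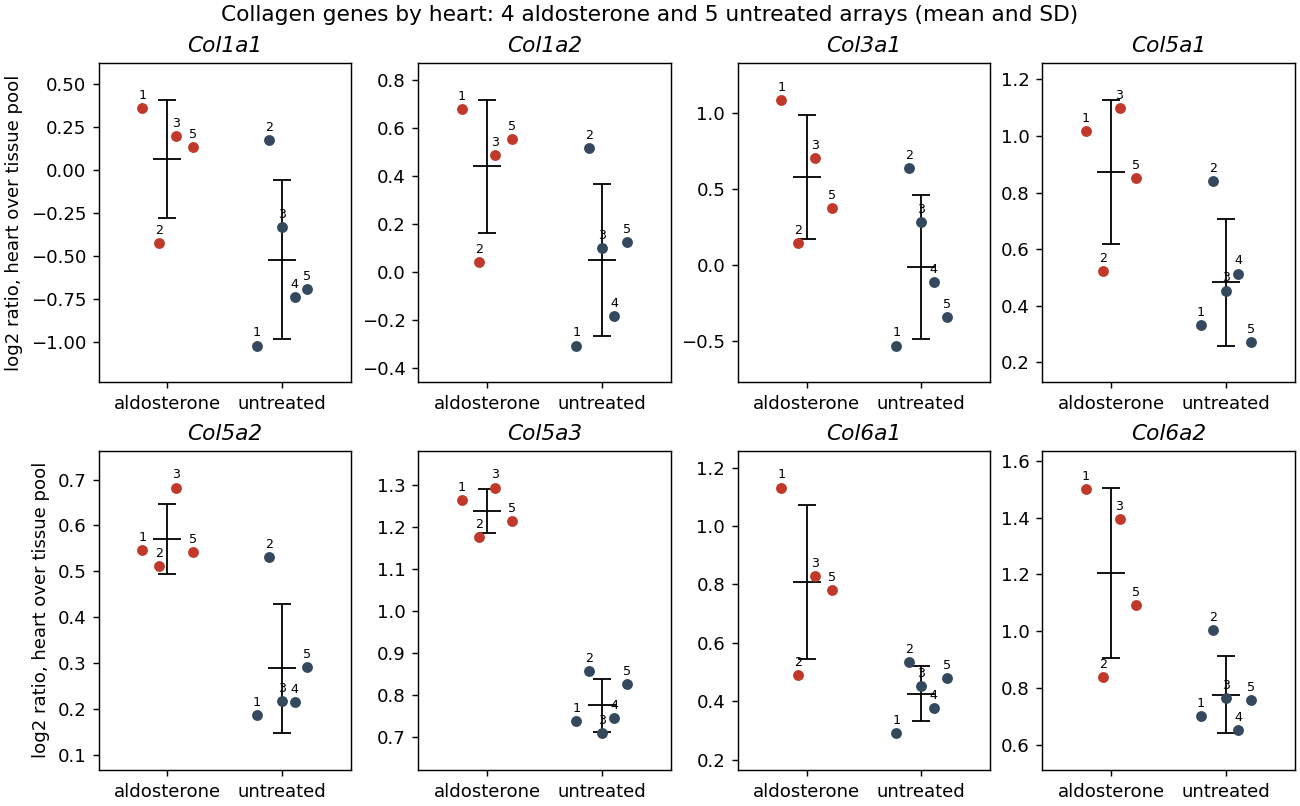
Log2 ratio of each heart over the tissue pool for the 8 collagen genes, from the scanner files of 4 aldosterone and 5 untreated arrays. Points are hearts with their replicate numbers and bars are the mean and SD; the groups are apart for Col5a3 and overlap for the other 7, where aldosterone 2 is low and untreated 2 is high within their groups.

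Col1a1 encodes the alpha 1 chain of type I collagen, of which each molecule holds a pair. Its log2 ratio was 0.36, -0.43, 0.20 and 0.13 in aldosterone hearts 1, 2, 3 and 5, and -1.02, 0.18, -0.33, -0.74 and -0.69 in untreated hearts 1 to 5. The means were 0.06 ± 0.34 in aldosterone hearts (SD, n = 4) and -0.52 ± 0.46 in untreated hearts (SD, n = 5). The groups overlapped, since aldosterone 2 lay below untreated 2 and 3. The difference was 0.59 (SE 0.23, 95% confidence interval 0.08 to 1.09; adjusted p = 0.731). Aldosterone 4, absent from the scanner files, had a Col1a1 ratio of 0.23 in the value table, within the -0.23 to 0.58 of the other aldosterone hearts, and the difference was 0.55 (SE 0.21; adjusted p = 0.544).

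Col1a2 encodes the partner chain of type I collagen. Its log2 ratio was 0.68, 0.04, 0.49 and 0.55 in aldosterone hearts 1, 2, 3 and 5, and -0.30, 0.52, 0.10, -0.18 and 0.13 in untreated hearts 1 to 5. Aldosterone 2 again lay among the untreated hearts, and untreated 2 among the aldosterone hearts. The difference was 0.39 (SE 0.17, 95% confidence interval 0.02 to 0.76; adjusted p = 0.789). The value table gave 0.38 (SE 0.16; adjusted p = 0.603).

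Col3a1, the single chain gene of type III collagen, had log2 ratios of 1.08, 0.14, 0.70 and 0.37 in aldosterone hearts 1, 2, 3 and 5, and of -0.53, 0.64, 0.28, -0.11 and -0.34 in untreated hearts 1 to 5. Only aldosterone 1 and 3 exceeded the highest untreated heart. The difference was 0.59 (SE 0.25, 95% confidence interval 0.05 to 1.13; adjusted p = 0.775), and the value table gave 0.55 (SE 0.24; adjusted p = 0.613). Col1a1 and Col3a1 had the widest spread within both groups of the 8 genes, with SDs of 0.34 and 0.41 in aldosterone hearts and of 0.46 and 0.47 in untreated hearts.

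Type V collagen has 3 chain genes, and the least usual of them, Col5a3, separated the groups. Col5a3 encodes the alpha 3 chain, which is present in a limited set of tissues. Its log2 ratio was 1.26, 1.18, 1.29 and 1.21 in aldosterone hearts 1, 2, 3 and 5, and 0.74, 0.86, 0.71, 0.74 and 0.83 in untreated hearts 1 to 5. Every aldosterone heart lay above every untreated heart, which was so for 1 of the 8 collagen genes and for 1.47% of all genes tested. Of the related and marker genes named below by list, it was also so for Col4a1, Ppib, Loxl1, Thbs1, Vim, Pdgfra, Meox1, Alas2 and Hbb-b2. It was not so for the others. The Col5a3 means were 1.24 ± 0.05 in aldosterone hearts (SD, n = 4) and 0.78 ± 0.06 in untreated hearts (SD, n = 5). The difference was 0.46 (SE 0.06, 95% confidence interval 0.34 to 0.59), or 1.38-fold, with an adjusted p of 0.101 in limma, at rank 1 by p of the 22014 genes. It passed in 1 of 36 alternatives, without untreated replicate 5 (0.47, adjusted p = 0.0442), and its adjusted p otherwise reached up to 0.595.

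The value table showed the groups apart for Col5a3 in 10 hearts too. Its ratios there were 2.12, 1.89, 2.11, 1.80 and 2.02 in aldosterone hearts 1 to 5, and 1.55, 1.60, 1.47, 1.57 and 1.56 in untreated hearts 1 to 5. Aldosterone 4 was the lowest of its group and still above all untreated hearts. The difference was 0.44 (SE 0.07, 95% confidence interval 0.28 to 0.60; adjusted p = 0.0607), at rank 44 by p. The groups did not overlap for 1 of the 8 genes there, against 1.35% of all genes.

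Col5a1 encodes the chain found in nearly all type V molecules. Its log2 ratio was 1.02, 0.52, 1.10 and 0.85 in aldosterone hearts 1, 2, 3 and 5, and 0.33, 0.84, 0.45, 0.51 and 0.27 in untreated hearts 1 to 5. All aldosterone hearts but replicate 2 exceeded the untreated hearts. The difference was 0.39 (SE 0.14, 95% confidence interval 0.09 to 0.69; adjusted p = 0.671), and 0.44 (SE 0.17; adjusted p = 0.526) in the value table.

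Col5a2 encodes the usual partner of the Col5a1 chain and had the dimmest probe, with a Cy5 signal of 98 to 162 units before background correction. Its log2 ratio was 0.55, 0.51, 0.68 and 0.54 in aldosterone hearts 1, 2, 3 and 5, and 0.19, 0.53, 0.22, 0.21 and 0.29 in untreated hearts 1 to 5. Untreated 2 stood within the aldosterone range and the other untreated hearts below it. The difference was 0.28 (SE 0.08, 95% confidence interval 0.11 to 0.46; adjusted p = 0.475). The value table gave 0.60 (SE 0.27, 95% confidence interval -0.01 to 1.21; adjusted p = 0.625), with untreated 2 the highest of all 10 hearts at 2.91. Without untreated 2 the value table gave 0.88. An added offset pulls ratios of dim spots towards 0, and with an offset of 16 in place of 50 the Col5a2 difference was 0.46, and 0.19 with no background correction.

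**Figure D2:**
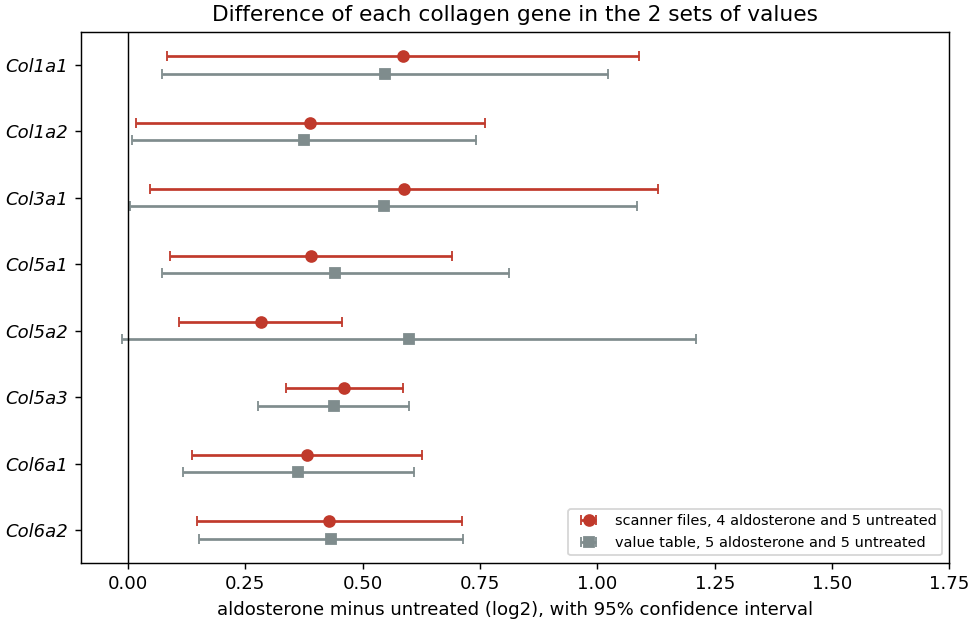
Difference of each collagen gene, aldosterone minus untreated in log2, with its 95% confidence interval from limma. Circles are the scanner files and squares the value table; all 16 differences are above 0, and the interval of Col5a3 is narrow beside those of Col1a1 and Col3a1.

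Col6a1 and Col6a2 encode chains that assemble 1 to 1 with a chain such as that of Col6a3 into type VI collagen, and their genes lie near each other on chromosome 10. Col6a1 had log2 ratios of 1.13, 0.49, 0.83 and 0.78 in aldosterone hearts 1, 2, 3 and 5, and of 0.29, 0.54, 0.45, 0.38 and 0.48 in untreated hearts 1 to 5. Col6a2 had 1.50, 0.84, 1.39 and 1.09 in aldosterone hearts 1, 2, 3 and 5, and 0.70, 1.01, 0.76, 0.65 and 0.76 in untreated hearts 1 to 5. For both genes 3 of 4 aldosterone hearts exceeded all untreated hearts, and aldosterone 2 lay below untreated 2.

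The Col6a1 difference was 0.38 (SE 0.11, 95% confidence interval 0.14 to 0.63; adjusted p = 0.492) and that of Col6a2 was 0.43 (SE 0.13, 95% confidence interval 0.15 to 0.71; adjusted p = 0.519). The value table gave 0.36 (SE 0.11; adjusted p = 0.384) and 0.43 (SE 0.13; adjusted p = 0.364), and aldosterone 4, at 0.99 and 1.71, lay above all untreated hearts for both genes. The aldosterone hearts varied more than the untreated hearts, with an SD of 0.26 and 0.09 for Col6a1 and of 0.30 and 0.14 for Col6a2.

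The same hearts stood at the ends for most of these genes. Aldosterone 1 was the highest array for 5 of the 8 genes and aldosterone 3 for the other 3, while untreated 1 was the lowest for 5. Aldosterone 2 ranked from 4 to 7 among the 9 arrays and untreated 2 from 3 to 5, so that untreated 2 was above aldosterone 2 for all but Col5a3. Aldosterone 4 ranked from 4 to 6 among the 10 hearts of the value table.

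Within slides, the fibrillar types I and III followed the group on 3 slides and not on slide 2, which held aldosterone 2 and untreated 3. Col1a1 differed by 0.78, -0.10, 0.94 and 0.82 on slides 1 to 4. Col3a1 differed by 1.03, -0.14, 0.81 and 0.72, and Col1a2 by 0.57, -0.06, 0.67 and 0.42. On slide 2 the aldosterone heart had the lower value for these 3 genes. Col6a1 differed by 0.72, 0.04, 0.45 and 0.30, and Col6a2 by 0.65, 0.08, 0.74 and 0.33. Col5a1 differed by 0.43, 0.07, 0.58 and 0.58, and Col5a2 by 0.19, 0.29, 0.47 and 0.25. Col5a3 was even across slides, at 0.47, 0.47, 0.55 and 0.39. With slide as a block in limma the differences of Col1a1, Col5a3 and Col6a1 were 0.62, 0.47 and 0.40.

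**Figure D3:**
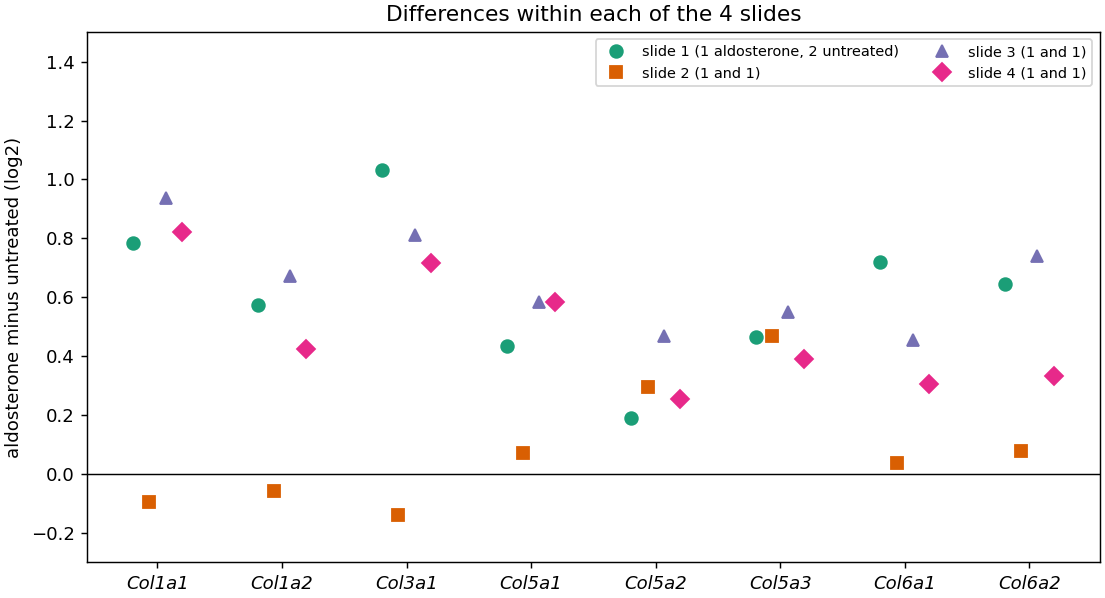
Aldosterone minus untreated (log2) within each of the 4 slides for the 8 collagen genes, with 1 aldosterone array per slide and 2 untreated arrays on slide 1. Slide 2 lies at or near 0 for the genes of types I, III and VI and for Col5a1, while Col5a3 lies between 0.39 and 0.55 on all 4.

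Within the 2 sets of hearts that the clustering gave, every collagen gene averaged higher with aldosterone, as a description with no test. Among aldosterone 1 and 2 and untreated 2 and 5, Col1a1 differed by 0.22, Col1a2 by 0.04, Col3a1 by 0.47, Col5a3 by 0.38 and Col6a1 by 0.30. Among aldosterone 3 and 5 and untreated 1, 3 and 4 these differences were 0.86, 0.65, 0.66, 0.52 and 0.43. All 8 were larger among aldosterone 3 and 5 and untreated 1, 3 and 4, and whether the sets differ was not tested.

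Chains of 1 collagen type can assemble together. It was therefore asked whether partner chains differed unequally, in 4 pairs with an exact two-sided permutation test over the arrays. For type V no fixed proportion of the chains is assumed, as Col5a3 is present in a limited set of tissues. Col1a1 minus Col1a2 averaged -0.38 ± 0.08 in aldosterone hearts (SD, n = 4) and -0.57 ± 0.20 in untreated hearts (SD, n = 5), a difference of 0.20 (exact p = 0.119, adjusted p = 0.238). Col6a1 minus Col6a2 averaged -0.40 ± 0.11 in aldosterone hearts and -0.35 ± 0.09 in untreated hearts, a difference of -0.05 (exact p = 0.540, adjusted p = 0.540). In the value table Col1a1 minus Col1a2 differed by 0.17 (exact p = 0.0635, adjusted p = 0.254). Col6a1 minus Col6a2 differed there by -0.07 (exact p = 0.270, adjusted p = 0.540). With same-numbered hearts as blocks, it was higher with aldosterone in 0 of 5 blocks (exact p = 0.0625 over 32 arrangements, adjusted p = 0.250). Those arrangements are too few for 1 pair alone to pass after adjustment. For neither pair did an unequal change pass adjustment.

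Within type V, Col5a3 minus Col5a2 differed by 0.18 (exact p = 0.00794, the smallest that 126 arrangements of the arrays allow; adjusted p = 0.0317). Over the 10 hearts of the value table that difference was -0.16 (exact p = 0.635, adjusted p = 0.635), so its direction depends on the values used, and the cause was not tested. In that table Col5a3 minus Col5a2 was -0.55 to -0.22 in aldosterone hearts. Untreated 2 lay below them at -1.32, and the other untreated hearts lay above them, at -0.06 to 0.17. Within slides, by the scanner files, Col5a3 minus Col5a2 was higher with aldosterone on 4 of 4, by 0.08 to 0.28. A test blocked by slide gave 0.18 (exact p = 0.0833 over 24 arrangements, adjusted p = 0.333), too few arrangements for 1 pair alone to pass after adjustment. Col5a3 minus Col5a2 also did not pass on leaving out any 1 heart (0.14 to 0.20). There too the arrangements are too few for 1 pair alone to pass after adjustment. Col5a1 minus Col5a2 differed by 0.11 (exact p = 0.357, adjusted p = 0.476) and by -0.16 (exact p = 0.540, adjusted p = 0.635) in the value table.

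The promoters of these genes are shown as a description, and a shared control of the genes was not tested. RefSeq promoter windows of the GRCm38.p6 assembly were found for 7 of the 9 genes, and the 250 bases before each window's annotated start were searched on both strands. The 4 below are those of a type I, the type III, the separating type V and a type VI gene, read 5′ to 3′ on the gene's own strand, with capitals marking a TATA box, a CCAAT box or a GC box on either strand.
Col1a2, chr6:4505368-4505617, plus strand: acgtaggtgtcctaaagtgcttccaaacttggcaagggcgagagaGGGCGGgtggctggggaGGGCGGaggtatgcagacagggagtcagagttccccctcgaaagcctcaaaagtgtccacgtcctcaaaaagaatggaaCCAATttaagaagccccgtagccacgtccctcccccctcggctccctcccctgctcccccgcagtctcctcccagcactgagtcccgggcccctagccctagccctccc
Col3a1, chr1:45311288-45311537, plus strand: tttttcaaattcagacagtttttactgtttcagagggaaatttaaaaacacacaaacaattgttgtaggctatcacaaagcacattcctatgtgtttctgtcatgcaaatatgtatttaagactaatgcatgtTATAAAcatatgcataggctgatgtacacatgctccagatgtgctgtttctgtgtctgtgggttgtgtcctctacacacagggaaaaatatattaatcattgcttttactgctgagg
Col5a3, chr9:20815068-20815317, minus strand: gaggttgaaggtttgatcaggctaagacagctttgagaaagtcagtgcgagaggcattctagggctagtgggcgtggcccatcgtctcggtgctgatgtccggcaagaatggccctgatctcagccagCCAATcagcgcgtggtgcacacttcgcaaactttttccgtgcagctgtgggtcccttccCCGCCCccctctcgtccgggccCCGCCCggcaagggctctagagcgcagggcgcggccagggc
Col6a1, chr10:76726045-76726294, minus strand: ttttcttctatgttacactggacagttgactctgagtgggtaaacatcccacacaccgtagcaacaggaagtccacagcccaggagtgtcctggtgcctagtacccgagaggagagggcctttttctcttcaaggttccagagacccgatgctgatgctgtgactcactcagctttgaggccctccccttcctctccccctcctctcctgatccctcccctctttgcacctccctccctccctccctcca

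The CCAAT box, which the factor NF-Y binds, lay 109 to 105 bases before the start of Col1a2 and 122 to 118 bases before that of Col5a3, and 33.8% of 32851 windows of all genes hold CCAAT. The GC box GGGCGG, a site of Sp1 family factors, matched in both and in 32.7% of all windows. The Col5a3 distances are counted from its window's own start, which lies inside the gene as placed in GRCm38.p6 (chr9:20770050-20815117). The last bases of the Col5a3 window therefore overlap the gene. Col3a1 held TATAAA 117 to 112 bases before its annotated start, a motif found in 12.4% of windows, and the Col6a1 window held none of the 3. The hexamer AGAACA, to which corticosteroid receptors bind, was found in 16.1% of all windows. The full receptor palindrome of this hexamer and its reverse complement was found in 0.00913%. Neither matched any window of the collagen genes. The letters of a window of this size say nothing of binding elsewhere.

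The genes whose values ran most like Col1a1 included 2 other collagen genes of the list. The root mean square difference of centred log2 ratios over 9 arrays was 0.13 for Postn (periostin), 0.14 for Col3a1, 0.17 for Serpinf1, 0.17 for Col1a2 and 0.18 for Col8a1, where the spread of Col1a1 itself was 0.47. For Col6a1, with a spread of 0.25, the 5 closest were Rcn3 (0.07), Col6a2 (0.09), Phlda3 (0.10), Igfbp7 (0.10) and Adamts2 (0.10), the last a protease that trims procollagen. All 15199 other named genes with a value on every array were compared. By the value table the 5 closest to Col1a1 were, in order, Col3a1, Serpinf1, Col1a2, Rad54l and Fstl1. The same 5 genes were again closest to Col6a1, now in the order Phlda3, Adamts2, Igfbp7, Rcn3 and Col6a2. The arrays share the group difference, slides and reference, so likeness is a description.

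Genes that act beside the collagens differed by list. No list named here had a member that passed over all genes, in either direction, in the 9 arrays or in the value table. Among 10 tested of 14 fibril-associated and network collagens, 8 lay higher (median 0.22), with Col4a1, a basement membrane chain, at 0.43 (SE 0.09; adjusted p = 0.243), Col8a1, a network collagen of vessels, at 0.55 (SE 0.15; adjusted p = 0.485) and Col4a2 at 0.25 (SE 0.10; adjusted p = 0.739). The rarer fibrillar and type VI chains gave no such pattern, with 1 of 3 tested of 8 higher (median -0.10). These were Col27a1 at 0.12 (SE 0.07), Col6a6, well above background on 7 of 9 arrays, at -0.15 (SE 0.08) and Col11a2 at -0.10 (SE 0.09). Their sizes depended on the values used. The value table gave 0.49 (SE 0.27) for Col27a1, -0.42 (SE 0.25) for Col6a6 and -0.35 (SE 0.11; adjusted p = 0.392) for Col11a2, with a list median of -0.35.

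Enzymes that act on procollagen outside the cell lay higher in 9 of 11 tested of 13 (median 0.21). The crosslinking enzyme genes Loxl1 and Loxl2 differed by 0.55 (SE 0.13; adjusted p = 0.300) and 0.55 (SE 0.15; adjusted p = 0.415), and Pcolce, an enhancer of C-propeptide removal, by 0.38 (SE 0.09; adjusted p = 0.395). Enzymes and chaperones that fold collagen inside the cell had a median difference of 0.03, with 9 of 16 higher. Of these Ppib, a prolyl isomerase, differed by 0.16 (SE 0.06; adjusted p = 0.719), the collagen chaperone gene Serpinh1 by 0.23 (SE 0.12) and Colgalt1, which adds galactose to collagen, by 0.14 (SE 0.08; 0.09 in the value table).

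Proteins that bind or organise fibrils lay higher in 12 of 15 tested of 17 (median 0.22). Thbs1, which encodes a matricellular protein that can activate TGF-beta, differed by 0.69 (SE 0.12; adjusted p = 0.132), the small proteoglycan genes Lum and Aspn by 0.52 (SE 0.15; adjusted p = 0.492) and 0.30 (SE 0.09; adjusted p = 0.582). Collagen receptors lay higher in 8 of 10 tested of 13 (median 0.12), among them the integrin gene Itga11 at 0.54 (SE 0.19; adjusted p = 0.674), Antxr1 at 0.19 (SE 0.08; adjusted p = 0.789; 0.30 in the value table) and Cspg4 at 0.13 (SE 0.07).

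Genes of collagen breakdown had a median of -0.01, with 4 of 10 tested of 12 higher. The protease gene Mmp3, well above background on 7 of 9 arrays, differed by 0.60 (SE 0.21; adjusted p = 0.682), and by 2.53 (SE 0.88; adjusted p = 0.486) in the value table. The protease inhibitor gene Timp1 differed by 0.52 (SE 0.21; adjusted p = 0.739) and the collagenolytic cathepsin gene Ctsk by 0.24 (SE 0.11; adjusted p = 0.825). Upstream signals had a median of 0.09, with 11 of 16 higher, and their smallest p belonged to Smad2 at 0.12 (SE 0.06; adjusted p = 0.847; 0.06 in the value table), Pdgfa at -0.14 (SE 0.07; adjusted p = 0.870) and Tgfbr2 at 0.15 (SE 0.08; adjusted p = 0.886).

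**Figure D4:**
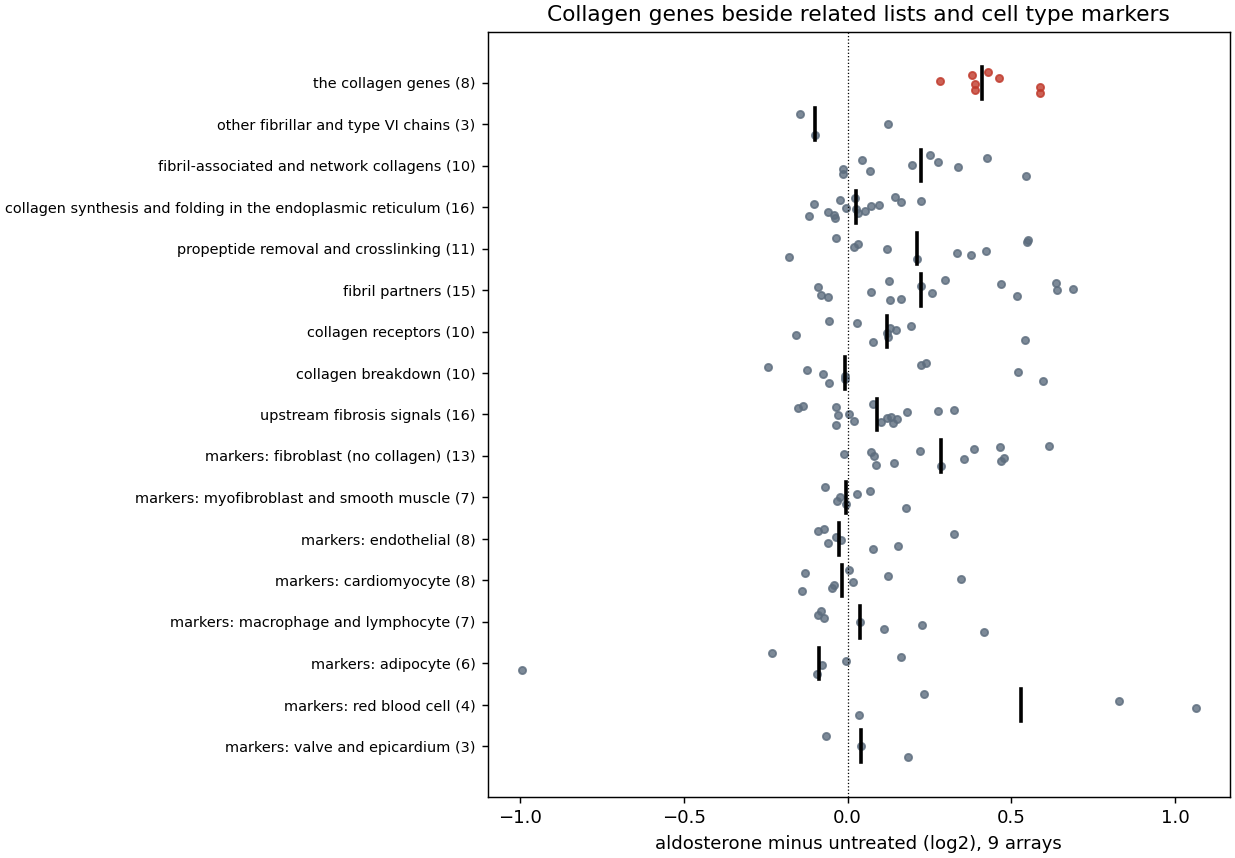
Aldosterone minus untreated (log2, 9 arrays) for the 8 collagen genes, related lists and cell type markers; points are genes, the black line is the list's median and the number in brackets is how many were tested. The collagen genes lie between 0.28 and 0.59, and medians of 0.21 to 0.28 are seen for fibril partners, extracellular enzymes, fibril-associated and network collagens and fibroblast markers. The red blood cell markers, 4 tested, have a median of 0.53.

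Fibroblast markers other than collagens also lay higher in aldosterone hearts. Of 13 markers, all tested, 12 lay higher with a median of 0.28, and their mean level per array ran from 0.52 to 0.78 in aldosterone hearts and from 0.27 to 0.65 in untreated hearts. Vim differed by 0.48 (SE 0.11; adjusted p = 0.257), Pdgfra, a receptor for platelet-derived growth factor, by 0.28 (SE 0.07; adjusted p = 0.404) and Meox1, a transcription factor of activated fibroblasts, by 0.62 (SE 0.16; adjusted p = 0.404). These had the smallest p of the 13 markers, whose differences ran from -0.01 to 0.62. In whole ventricle RNA, more fibroblasts and more collagen RNA per fibroblast cannot be told apart. The part of fibroblast number in the collagen differences was not tested.

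Markers of the other cell types had medians near 0, except for red blood cells and adipocytes. The 4 tested of 6 red blood cell markers all lay higher, with a median of 0.53 and a mean level from -2.39 to -1.92 in aldosterone hearts and from -3.36 to -2.46 in untreated hearts. Hbb-b2, saturated on 1 array, differed by 1.06 (SE 0.28; adjusted p = 0.415), Alas2 by 0.83 (SE 0.21; adjusted p = 0.396) and Slc4a1 by 0.23 (SE 0.10; adjusted p = 0.783). The alpha globin gene Hba-a1, named after its values were seen, differed by 0.03 (SE 0.14; adjusted p = 1.00), and by 0.03 in the value table. The part of red blood cells in the collagen result was not tested. Of 6 adipocyte markers 1 lay higher (median -0.09, or -0.81 in the value table), and Cfd (adipsin) differed by -0.99 (SE 0.29; adjusted p = 0.506), Cidec by -0.23 (SE 0.14) and Fabp4 by 0.16 (SE 0.12). The value table gave -1.64 (SE 0.47; adjusted p = 0.346) for Cfd and -1.68 (SE 0.63; adjusted p = 0.528) for Cidec, whose probe was well above background on 7 of 9 arrays. The median was -0.01 for 7 tested of 8 myofibroblast and smooth muscle markers, -0.03 for 8 endothelial, -0.02 for 8 cardiomyocyte, 0.04 for 7 tested of 8 macrophage and lymphocyte and 0.04 for 3 tested of 5 valve and epicardium markers. The members of these lists with the smallest p were Mylk (-0.07), Rgs5 (0.07) and Acta2 (0.18) for muscle and pericytes, Vwf (0.32), Cdh5 (0.15) and Emcn (-0.09) for endothelium, and, among those for leukocytes, Adgre1 (0.42) and Nkg7 (-0.08). For cardiomyocytes they were Myl2 (-0.13) and Myh6 (-0.14), both saturated on all 9 arrays, and Ryr2 (0.35). Tnnt2 and Tnni3 were also saturated on all 9 and Ttn on 5, which limits what the cardiomyocyte median can show. For valve and epicardium the smallest p belonged to Wt1 (0.19), Krt19 (-0.07) and Msln (0.04). In the value table Krt19, whose probe was well above background on 7 of 9 arrays, differed by -0.21 and Msln by 0.09.

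Over 36 alternatives, which changed the processing, the test, the block or left out 1 heart, all 8 differences stayed above 0. Col5a3 ranged from 0.39 to 0.51 and had an unadjusted p under 0.05 in 36 of 36, as did Col6a1 (0.27 to 0.49) and Col6a2 (0.33 to 0.55). Col1a1 ranged from 0.43 to 0.76 with such a p in 22 of 36, Col3a1 from 0.41 to 0.75 in 18 and Col1a2 from 0.29 to 0.52 in 15. Col5a1 ranged from 0.32 to 0.53 in 29 of 36, and Col5a2 from 0.19 to 0.88 in 23.

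**Figure D5:**
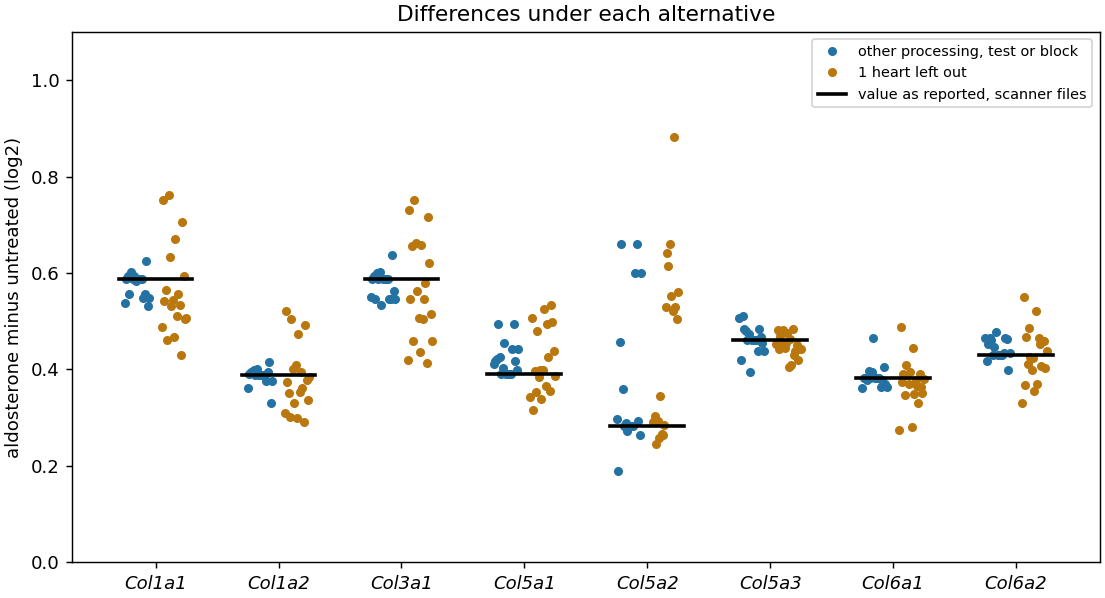
Difference of each collagen gene (aldosterone minus untreated, log2) under 36 alternatives, with the value from the scanner files as a black line. Col5a3 stays between 0.39 and 0.51, while Col5a2 runs from 0.19 to 0.88.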

How the data were processed

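Ventricle RNA of 5 aldosterone and 5 untreated mice, each sample labelled as a separate mouse, was measured on 2-colour Agilent arrays with a Cy3 tissue pool. The scanner files as deposited give each spot's intensity and a log10 ratio of Cy5 over Cy3 for 9 arrays. Per the file headers, they were made by version 10.7.3.1 of Agilent Feature Extraction. The value table the authors deposited has 10 columns of log2 ratios, 1 per heart. For the 9 arrays it matched the scanner's ratio in log2 (r 0.996 to 1.00, slope 1.00, 82.7% to 86.5% of probes within 0.001), so scale and direction are known and no centring was seen. Its column medians ran from -0.01 to 0.12. The remaining probes differ for a reason no source here states.

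Median signals were corrected with normexp (offset 50) and normalized by within-array loess that gave control spots weight 0, in limma 3.58.1 under R 4.3.3. The files hold median signals where the usual setting takes means. Local backgrounds over 20 units from an array's median were replaced by it, because on untreated 1 a few reached 11739.5 units, where other arrays had at most 712, and set the noise term of normexp. Outlier spots (1667) were left out. Accessions were matched to RefSeq genes of GRCm38.p6, naming 26581 of 39429 probes. Probes well above background in Cy5 on at least 4 arrays were kept (26874), 1 per gene by highest mean signal, giving 22014 genes or transcripts.

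The test was a two-sided limma linear model. Its p-values were adjusted by Benjamini and Hochberg's method across the whole table, called under 0.05, and the script was tested on simulated data. The value table was fitted for the same probes. Members, lists, the replacement of backgrounds and the rule for named genes were chosen with earlier results of these data known. Named were the collagen genes, the 3 genes of smallest p per list, of which 1 is not reported here, and the 5 closest in pattern to Col1a1 and Col6a1.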

Additional observations from a re-analysis of the deposited data

Results flagged for a closer look

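In the value table the Col5a2 ratio of untreated 2 was 2.91, apart from the other untreated hearts at 1.40 to 1.63. Its gap to the nearest was 0.851 of the group's range, past the limit for 5 samples. Gaps past that limit, of whatever size, arise by chance in about 1 of 20 independent groups, and 1 of 32 groups of collagen values showed one. The 32 groups share the same hearts and are not independent, so the 2 rates cannot be compared directly. Without untreated 2 the Col5a2 difference in the value table was 0.88 in place of 0.60.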

How the results depend on the processing

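The 8 collagen differences kept their sign in all 36 alternatives, and the number of higher genes was 8 throughout. Leaving out 1 heart at a time moved their median between 0.34 and 0.52. Collagen genes called were 0 to 1 on leaving out 1 heart. The count of genes called over all genes, 0 as reported, was 11 with Agilent processed signals, 37 in the value table, 13 in its 9 hearts with scanner files and 2 with the replicate block. It was 0 to 51, with 2 to 51 in the value table (27 without untreated 3, 6 without untreated 1), on leaving out 1 heart, the highest without untreated 5 and 2 without aldosterone 3. On the scanner files it was 11 without untreated 5, 7 without untreated 3, 2 without untreated 4 and 1 without aldosterone 1.

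Col5a3 minus Col5a2 turned to -0.18 with Agilent processed signals and in the 9 hearts of the value table and to -0.16 in its 10 hearts. It lost its call at 0.23 without background correction, 0.053 with an offset of 16, 0.12 with median centring and 0.12 in Cy5 alone. On leaving out 1 heart it was 0.14 to 0.20 without a call. There fewer arrangements raise the smallest possible p, so that 1 pair alone cannot pass after adjustment. Col5a1 minus Col5a2 turned to -0.036 with an offset of 16, to -0.17 with Agilent processed signals and in the 9 hearts, and to -0.16 in the 10 hearts. Col6a1 minus Col6a2 ranged from -0.078 to 0.0076 on leaving out 1 heart, above 0 without aldosterone 3. Causes were not tested.

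Same-numbered hearts deviated together in 2 of 4 pairs (correlations of 0.06, 0.35, 0.35 and -0.34), 2 of 8 hearts correlated best with their own number, and nothing in the labels ties the numbers. With the replicate block, which drops untreated 4, Col5a3 differed by 0.45 and Col1a1 by 0.53 and no collagen gene was called. In the value table the block left 0 genes called. Chosen after seeing the data, a test that rearranged groups within blocks gave Col5a3 minus Col5a2 as 0.18 with slide as a block and 0.19 with the replicate block (exact p of 0.0833 and 0.125), and, in the value table with the replicate block, -0.16 for it and -0.16 for Col5a1 minus Col5a2. Dim spots, such as Col5a2, limit what the ratios can show.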
